A study of Mus musculus with 27 samples.

Results

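Complement components were described here as 9 of the 40129 genes in the mouse retina table, over all mice and both ages. They were taken by symbol and are C1qa, C1qb, C1qc, C1ra, C1s1, C3, C4b, Cfb and Serping1, and all 9 were found. All pups were wild type (WT) C57BL/6 mice (C57BL/6J in the study's methods) of both sexes. In the oxygen-induced retinopathy (OIR) groups, pups breathed 75% oxygen from postnatal day (p) 7 to p12 and were then returned to room air. Control pups (nOIR) stayed in room air. Retinas were taken at p14, when large areas of the OIR retina lack vessels, or at p17, when retinal neovascularization (RNV) is at its height. The comparison asked how the retinal transcriptome differed from that of age-matched controls at each of these 2 ages. The comparison rested on 6 nOIR and 6 OIR mice at p14 and on 6 nOIR and 8 OIR mice at p17. A further nOIR p14 mouse, S4, was left out, following the methods of the study. Each library held a single retina or both retinas of a mouse perfused with PBS. At p14, controls came from 3 litters and OIR mice from 4, and at p17 from 2 and 3, but which mouse came from which litter was not known. Mice were therefore taken as independent, and a shared litter could not be modelled.

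Complement is a cascade of proteins that tags cells, debris and microbes for removal. In the classical branch, the C1q chains C1qa, C1qb and C1qc assemble into a molecule that binds its target and carries the proteases C1r and C1s, which cleave C4 and C2. The products cleave C3, the component on which all branches meet, and complement factor B (Cfb) serves the alternative branch, which amplifies C3 cleavage. C1 inhibitor, encoded by Serping1, blocks C1r and C1s. In the nervous system, C1q is made mainly by microglia, the resident macrophages, and complement is known for its part in the pruning of synapses and in the response to injury.

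Each value below is a number of normalized reads, which are the reads counted on a gene divided by a size factor of that mouse. Depth lay between 17029536 reads, in mouse S1 of OIR p17, and 33593428 reads per mouse, and the median was 30182576. Rod markers checked the tissue label, since a list of 6 of them summed to no fewer than 858081 normalized reads in any mouse. Fold changes are differences of group means of log2(normalized reads + 1), which understates the change of genes at low levels. Adjusted p-values come from limma over 27137 genes, those that averaged 1 normalized read or more, and all 9 complement genes passed this minimum.

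At p14, 5 of the 9 genes were higher in OIR than in nOIR retinas at an adjusted p under 0.05, namely C1qa, C1qb, C3, C4b and Serping1, and none was lower. Over all genes tested, 3.18% were higher and 2.91% were lower in this comparison. At p17, 8 of the 9 genes were higher, Cfb being the exception, and none was lower, against 7.39% higher and 5.12% lower over all genes. By edgeR, 6 of the 9 were higher at p14 and 7 at p17, and by DESeq2, 6 and 8. None of the 9 was lower at either age by edgeR or DESeq2, and 0 were lower at an unadjusted p under 0.05 by limma. On the log2 scale, the 9 genes changed by a median of 1.06 at p14 and 2.07 at p17, against 0.02 and -0.02 over all genes. Differentially expressed genes (DEG) also had to change by more than 2 on the log2 scale. By this, C3 and C4b were DEG at p14 (0.744% of all genes), and C1qa, C1qb, C1qc, C3, C4b and Serping1 were DEG at p17 (1.9% of all genes). The log2 fold change of C1qa at p17 fell just under 2 in some alternative fits, to 1.97 at the lowest, which left 5 DEG. Every OIR mouse lay above every control for 4 genes at p14 (1.91% of all genes) and for 7 genes at p17 (3.9% of all genes).

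**Figure D1:**
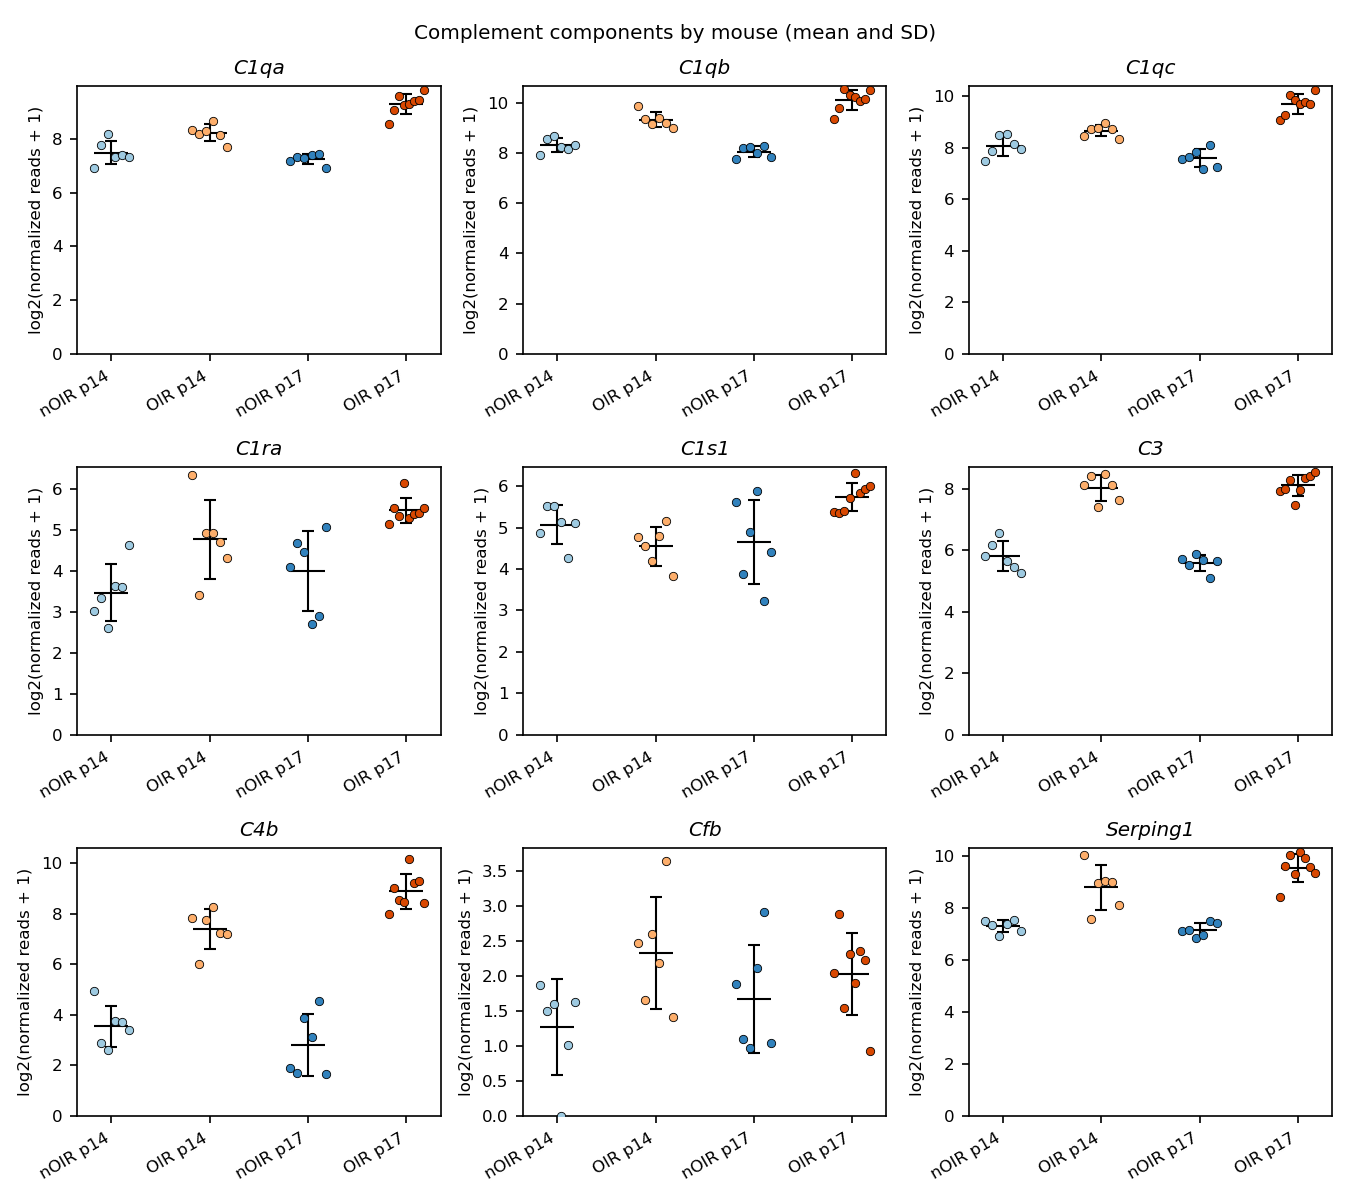
Each panel plots log2(normalized reads + 1) of 1 gene (vertical axis) for the 4 groups (horizontal axis). Points are mice, and the bar with whiskers is the mean and SD. C3 sits at the same height in both OIR groups, the C1q chains step up again from OIR p14 to OIR p17, and Cfb is no higher than 11.5 normalized reads in any of the 26 mice plotted.

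The C1q chains lie side by side on the minus strand of chromosome 4 (GRCm38, GENCODE M21 annotation), with C1qb at chr4:136880129-136886187, C1qc at chr4:136889804-136893065 and C1qa at chr4:136895917-136898803. Since they moved together, the bases before their starts are shown where the RefSeq promoter table held an entry (GRCm38.p6, minus strand, read 5′ to 3′ toward the gene). Capitals mark GAGGAA or its opposite-strand form TTCCTC, the core letters bound by PU.1, a transcription factor of macrophages and microglia.
C1qb, chr4:136886201-136886450: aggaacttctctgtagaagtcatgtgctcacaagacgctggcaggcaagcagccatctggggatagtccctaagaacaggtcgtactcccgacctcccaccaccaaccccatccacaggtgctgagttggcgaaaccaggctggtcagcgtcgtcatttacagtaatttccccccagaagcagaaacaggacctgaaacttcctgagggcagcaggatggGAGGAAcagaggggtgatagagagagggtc
C1qc, chr4:136893066-136893164: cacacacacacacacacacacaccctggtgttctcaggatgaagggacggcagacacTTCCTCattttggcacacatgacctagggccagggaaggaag
The match lies 30 bases before the RefSeq start of C1qb and 193 bases before that of C1qc, whose sequence is cut at the start of the GENCODE gene. These letters, on either strand, are in 23.3% of the 32851 mouse promoters read the same way (250 bases before the start), so a match is a description and not a binding site.

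C1qa, the A chain of C1q, ranged from 119.0 to 290.3 normalized reads in nOIR p14 mice (median 165.6) and from 208.4 to 405.4 in OIR p14 mice (median 303.3). At p17, it ranged from 120.0 to 170.7 in controls (median 157.8) and from 378.0 to 907.1 in OIR mice (median 652.5). The groups overlapped at p14, where 3 of 6 OIR mice lay above every control, and were apart at p17. The log2 fold change was 0.74 (SE 0.19, adjusted p = 0.0172 by limma) at p14 and 2.05 (SE 0.18, adjusted p = 1.05e-09) at p17. The call at p14 was lost without nOIR p14 mouse S1 (adjusted p = 0.0533) or without OIR p14 mouse S4 (adjusted p = 0.0527).

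C1qb, the B chain, ranged from 243.3 to 409.7 normalized reads in nOIR p14 mice (median 310.8) and from 504.1 to 931.0 in OIR p14 mice (median 620.5). At p17, the range was 215.4 to 310.8 in controls (median 271.4) and 645.6 to 1480 in OIR mice (median 1168). No OIR mouse overlapped with a control at either age, and C1qb was the only C1q chain of which this held at p14. Its log2 fold change was 1.01 (SE 0.17, adjusted p = 2.81e-04) at p14 and 2.07 (SE 0.16, adjusted p = 1.04e-10) at p17.

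C1qc, the C chain, ranged from 179.4 to 374.9 normalized reads in nOIR p14 mice (median 265.0) and from 326.2 to 499.4 in OIR p14 mice (median 420.3). At p17, it ranged from 142.3 to 272.7 in controls (median 193.0) and from 544.5 to 1217 in OIR mice (median 864.4). At p14, 4 of 6 OIR mice lay above every control, and the log2 fold change of 0.58 (SE 0.19) missed the threshold with an adjusted p of 0.0725. It passed when S4 was included (adjusted p = 0.0407), when each mouse was scaled to the same total (adjusted p = 0.0471), or without nOIR p14 mouse S3 (adjusted p = 0.0477) or S5 (adjusted p = 0.0426). At p17, the groups were apart, with a log2 fold change of 2.12 (SE 0.18, adjusted p = 4.72e-10).

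The 3 chains differed little from each other in the size of their change at p17, where their fold changes lay between 4.14 and 4.35. Within each mouse, C1qb had a median of 1.80 normalized reads per read of C1qa in controls and 2.16 in OIR mice at p14, and of 1.81 in controls and 1.69 in OIR mice at p17. The ratio of C1qc to C1qa had medians of 1.52, 1.42, 1.28 and 1.33 in that order. All 3 chains had a larger effect of OIR at p17 than at p14, and limma tested this difference of effects directly. It was 1.31 on the log2 scale for C1qa (SE 0.26, adjusted p = 0.00449), 1.06 for C1qb (SE 0.24, adjusted p = 0.0123) and 1.54 for C1qc (SE 0.26, adjusted p = 7.45e-04). Of all genes, 1.43% passed this test in that direction, and none of the other 6 complement genes did by limma, edgeR or DESeq2. C1s1, C4b and Serping1 had an unadjusted p under 0.05 for this difference by limma.

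C1ra encodes the protease that starts the cleavage of C1s. It ranged from 5.06 to 24.1 normalized reads in nOIR p14 mice (median 10.2) and from 9.66 to 80.8 in OIR p14 mice (median 27.2). At p17, it ranged from 5.51 to 32.9 in controls (median 18.7) and from 34.2 to 70.5 in OIR mice (median 41.7). The groups overlapped at p14 and were apart at p17, though the lowest OIR mouse stood close above the highest control. The log2 fold change was 1.30 (SE 0.43, adjusted p = 0.0709) at p14 and 1.49 (SE 0.40, adjusted p = 0.0104) at p17. The value at p14 passed with edgeR (adjusted p = 0.0404) and DESeq2 (adjusted p = 0.0109) and without nOIR p14 mouse S7 (adjusted p = 0.0342) or OIR p14 mouse S2 (adjusted p = 0.0214).

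C1s1 encodes the protease that cleaves C4 and C2. It ranged from 18.3 to 44.8 normalized reads in nOIR p14 mice (median 33.8) and from 13.2 to 34.5 in OIR p14 mice (median 24.4). At p17, it ranged from 8.35 to 58.4 in controls (median 24.5) and from 40.0 to 78.2 in OIR mice (median 53.9). At p14, C1s1 alone of the 9 genes had a negative estimate, a log2 fold change of -0.53 (SE 0.35, adjusted p = 0.508), with overlapping groups. At p17 it was 1.09 (SE 0.33, adjusted p = 0.0257), and 3 of 8 OIR mice lay above every control. This call was lost with edgeR (adjusted p = 0.0853), with quantile normalization (adjusted p = 0.0780), in a fit of the p17 groups alone (adjusted p = 0.0615), and without nOIR p17 mouse S2 (adjusted p = 0.0834), S5 (adjusted p = 0.103) or S6 (adjusted p = 0.0582) or OIR p17 mouse S5 (adjusted p = 0.0510).

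C3, on the minus strand at chr17:57203970-57228136, was raised to about the same level at both ages. In nOIR p14 mice it ranged from 37.7 to 93.1 normalized reads (median 52.1), and in OIR p14 mice from 168.4 to 354.8 (median 278.0). At p17, the range was 33.4 to 57.6 in controls (median 50.3) and 179.6 to 373.0 in OIR mice (median 283.7). The lowest OIR mouse lay above the highest control at each age. The log2 fold change was 2.21 (SE 0.22, adjusted p = 8.73e-08) at p14, which ranked 23 of all genes tested by p-value, and 2.53 (SE 0.21, adjusted p = 2.32e-10) at p17. The 2 effects differed by 0.32 on the log2 scale (95% confidence interval -0.30 to 0.94, adjusted p = 0.771). OIR p17 mice differed from OIR p14 mice by 0.10 (95% confidence interval -0.33 to 0.52, adjusted p = 0.867), so a difference of more than 0.52 lay outside the interval.

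The bases before the RefSeq start of C3 (GRCm38.p6, minus strand, 5′ to 3′ toward the gene) are shown because C3 had the smallest p-value of the 9 genes at p14. Capitals mark TTGCGAAA, a match to TTGCNNAA, core letters of the C/EBP factors, which lies 45 bases before the start.
C3, chr17:57228137-57228386: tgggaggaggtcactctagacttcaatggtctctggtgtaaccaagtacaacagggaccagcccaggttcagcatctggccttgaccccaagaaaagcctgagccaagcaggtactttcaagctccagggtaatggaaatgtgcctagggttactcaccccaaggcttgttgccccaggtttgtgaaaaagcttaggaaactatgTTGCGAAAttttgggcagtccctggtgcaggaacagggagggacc
TTGCNNAA was in 9.56% of all promoters on either strand. Of the 6 entries that the table held for 5 of the 9 genes (C1qb, C1qc, C1ra, C1s1 and C3, with 2 entries for C1s1), 2 held this motif and 2 held GAGGAA, each searched over the whole 250 bases before its start. An interferon-stimulated response element (ISRE, in 2.98% of all promoters), TTCNNNGAA (the STAT element GAS, 7.02%) and an NF-kB site (0.98%) were in none of the 6, on either strand. That says only that these letters are not in these windows.

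C4b, on the minus strand at chr17:34728380-34743882, had the largest fold changes of the 9 genes. It ranged from 5.06 to 29.3 normalized reads in nOIR p14 mice (median 10.8) and from 62.3 to 304.2 in OIR p14 mice (median 182.2). At p17, it ranged from 2.12 to 22.3 in controls (median 5.21) and from 248.9 to 1145 in OIR mice (median 444.7). The groups were apart at both ages, and the lowest OIR mouse, S2 at p14, had more than any control of either age. The log2 fold change was 3.83 (SE 0.47, adjusted p = 1.97e-06) at p14 and 6.09 (SE 0.44, adjusted p = 2.45e-11) at p17. With a pseudocount of 10 in place of 1, it was 3.05 and 4.81. As a ratio of group means of normalized reads, C4b was 14.8 times higher at p14 and 62.2 times higher at p17. The effects at the 2 ages differed by 2.26 (SE 0.64), which did not pass after adjustment (adjusted p = 0.0783).

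The balance of C4b to C3 reads differed between the groups. Within each mouse, C4b had a median of 0.250 normalized reads per read of C3 in controls at p14 (range 0.0543 to 0.532) and of 0.768 in OIR mice of that age (range 0.184 to 1.27). At p17, the median was 0.102 in controls (range 0.0426 to 0.667) and 1.83 in OIR mice (range 0.904 to 4.57). The ratios of OIR p17 mice lay above those of every p17 control, and the p14 groups overlapped.

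Cfb had the lowest median of the 9 genes in each group. It ranged from 0 to 2.66 normalized reads in nOIR p14 mice (median 1.93), from 1.65 to 11.5 in OIR p14 mice (median 4.05), from 0.960 to 6.49 in nOIR p17 mice (median 1.92) and from 0.895 to 6.36 in OIR p17 mice (median 3.39). The groups overlapped at both ages. At p14, 4 of 6 OIR mice lay above every control. The estimate for Cfb on the log2 scale was 1.06 (SE 0.45, adjusted p = 0.200 by limma) at p14, where it ran from 0.32 to 1.75 over the alternatives. At p17 the estimate was 0.35 (SE 0.42, 95% confidence interval -0.50 to 1.21, adjusted p = 0.694).

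Serping1, which encodes C1 inhibitor and lies on the minus strand at chr2:84765387-84775444, ranged from 121.4 to 184.2 normalized reads in nOIR p14 mice (median 162.3) and from 192.2 to 1057 in OIR p14 mice (median 504.5). At p17, it ranged from 115.2 to 181.8 in controls (median 139.7) and from 345.3 to 1132 in OIR mice (median 774.1). The groups were apart at both ages, though OIR p14 mouse S2 was only just above the highest control. Serping1 changed on the log2 scale by 1.50 (SE 0.28, adjusted p = 8.26e-04) at p14 and 2.38 (SE 0.26, adjusted p = 7.46e-08) at p17. The effects differed by 0.88 (95% confidence interval 0.09 to 1.67), with an adjusted p of 0.387.

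Exact permutation tests over the mice (two-sided, on the log2 scale) gave p = 0.00216 for C1qb, C3, C4b and Serping1 at p14 and p = 6.66e-04 for C1qa, C1qb, C1qc, C1ra, C3, C4b and Serping1 at p17, the smallest values that these group sizes allow. For the remaining genes, the exact p at p14 was 0.0152 for C1qa, 0.0130 for C1qc, 0.0216 for C1ra, 0.0779 for C1s1 and 0.0260 for Cfb. At p17 it was 0.0186 for C1s1 and 0.343 for Cfb by the same exact test.

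**Figure D2:**
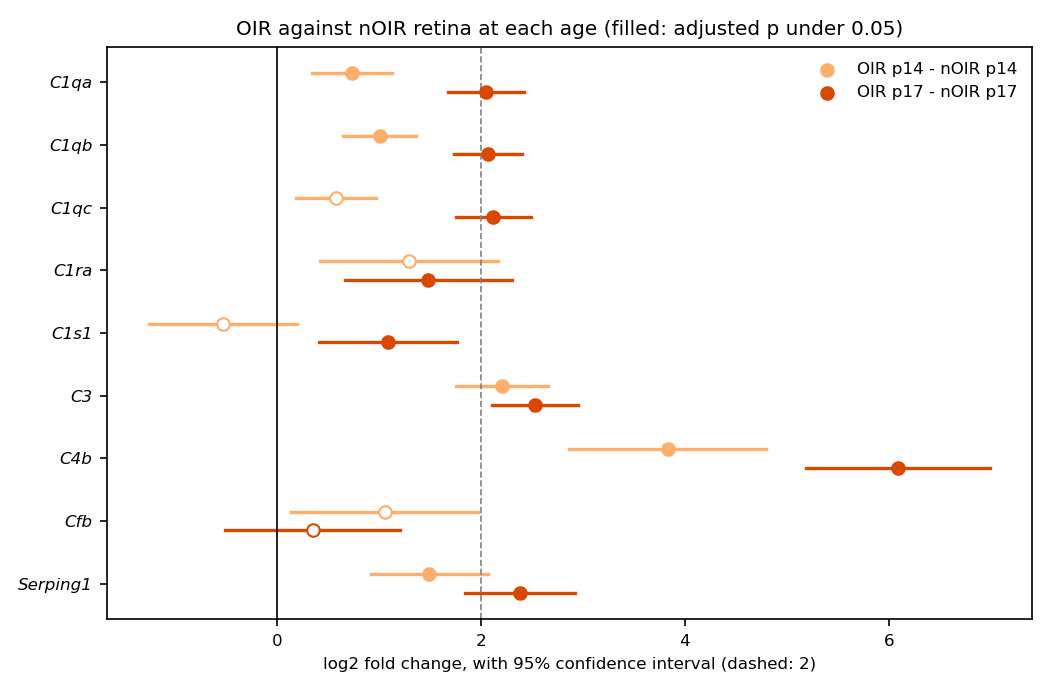
For each gene (vertical axis), the log2 fold change of OIR against nOIR retinas (horizontal axis) is drawn with its 95% confidence interval, once for p14 and once for p17. Filled points have an adjusted p under 0.05, and the dashed line is the threshold of 2. At p17, the C1q chains, C3, C4b and Serping1 lie right of that line, while at p14 C3 and C4b do.

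Between the 2 OIR ages, 5 of the 9 genes were higher at p17 than at p14 (4.11% of all genes). C1qa rose by 1.08 (adjusted p = 2.02e-04), C1qb by 0.79 (adjusted p = 0.00193) and C1qc by 1.05 (adjusted p = 2.81e-04) on the log2 scale, and the C1qc values of the OIR ages did not overlap. C1s1, also without overlap, rose by 1.20 (adjusted p = 0.0257) and C4b by 1.51 (adjusted p = 0.0360). The count was 3, the C1q chains, without OIR p14 mouse S6, and the C1q chains were called under every alternative tried, whereas C1s1 and C4b were each lost under some. C1ra had an estimate of 0.71 (adjusted p = 0.362), Serping1 of 0.76 (adjusted p = 0.0919) and Cfb of -0.30 (adjusted p = 0.769).

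In room air, the levels were not shown to differ between the ages. None of the 9 genes was higher or lower at nOIR p17 than at nOIR p14 by limma, edgeR or DESeq2, where limma called 0.158% of all genes higher and 0.158% lower. At an unadjusted p under 0.05 by limma, 1 gene was lower, C1qc, with a log2 fold change of -0.50 (adjusted p = 0.448), and 0 were higher. The estimates of all 3 C1q chains with age were thus negative in room air and positive in OIR.

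Levels of different genes can be compared only per length, and normalized reads were therefore divided by the kilobases of merged exons. At OIR p17, C1qb had the highest level with 1053 ± 259 normalized reads per kilobase (SD, n = 8). C1qa followed with 627 ± 153, C1qc with 448 ± 113 and Serping1 with 341 ± 111. C4b (92.0 ± 49.9) and C3 (55.5 ± 12.4) came next, and C1s1 (17.2 ± 4.27), C1ra (15.0 ± 3.73) and Cfb (1.18 ± 0.577) were lowest. Means that differed by less than the larger SD of the pair were those of C1qc and Serping1, C4b and C3, and C1s1 and C1ra. The order of C1qa and C1qc depended on the length used. Per kilobase of the main transcript alone, C1qc was at 719 ± 182, C1qa at 627 ± 153 and Serping1 at 448 ± 145, so C1qc was then close to C1qa and not to Serping1. In nOIR p17 retinas, C4b was at 1.48 ± 1.42 normalized reads per kilobase, close to Cfb at 0.924 ± 0.757, while C3 was at 9.35 ± 1.59 (SD, n = 6). Parts of the transcripts of C1ra, C1s1, C4b and Cfb also occur in other genes, as given below. No allowance was made for reads that counting may have left out for this. The levels of these genes may therefore be too low beside those of the others, which was not tested.

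Several of these genes have close copies, which bears on what was counted. Of all 50-base windows (the read length) of the main transcript, none was found in another GENCODE M21 gene for C1qa, C1qb, C1qc, C3 and Serping1. The share was 50.8% for C1ra, nearly all of it with C1rb, 39.0% for C1s1, which shares with C1s2 and with the overlapping gene Gm16567, 35.2% for C4b, shared with C4a, and 81.4% for Cfb, shared with the overlapping gene Gm20547. Counting by featureCounts with default settings leaves out reads that map to several places or overlap several genes, and the authors counted with a later annotation, M28. Whether reads of C1ra, C1s1, C4b and Cfb were left out in this way, and how many, was not tested.

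**Figure D3:**
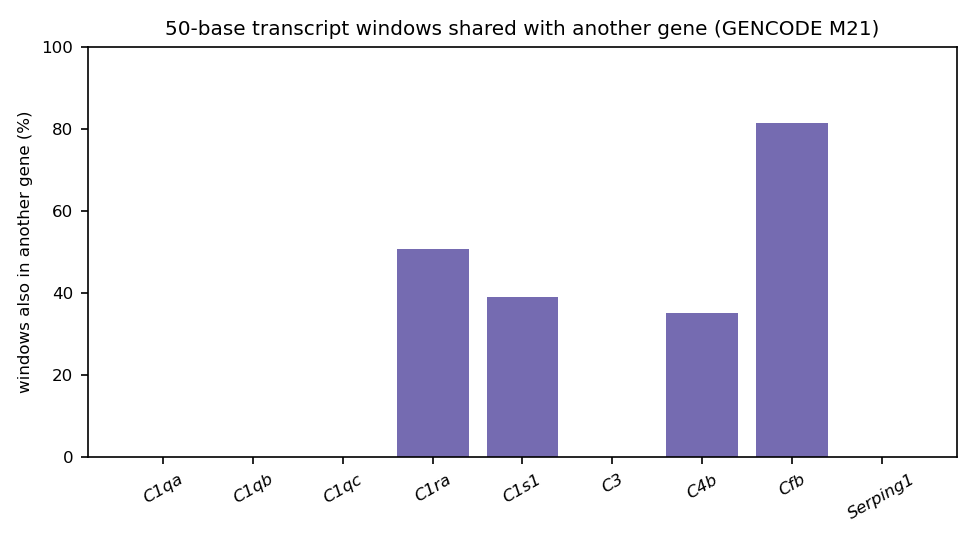
Bars give, for each of the 9 genes (horizontal axis), the percent of 50-base windows of its main transcript that also occur in another gene (vertical axis). C1ra, C1s1, C4b and Cfb share between 35.2% and 81.4% of their windows, and the other 5 genes share 0%.

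Of the copies, C4a and C1s2 were not called and C1rb was not tested. C4a, a close neighbour of C4b, had a mean of 12.3 normalized reads in controls and 28.7 in OIR mice at p14, and of 12.4 and 16.4 at p17. Its estimates on the log2 scale were 1.24 (adjusted p = 0.247 by limma) at p14 and 0.56 (adjusted p = 0.601) at p17. C1s2 had a mean of 4.76 normalized reads in controls and 0.696 in OIR mice at p14, and of 0.640 and 1.09 at p17. It did not pass at either age (adjusted p = 0.286 and 0.747 by limma), though at p14 it was lower at an unadjusted p under 0.05. C1rb did not reach the minimum level.

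A further 53 genes of the complement system were listed by role, of which 48 were in the table and 39 could be tested. At p14, 4 of these 39 were higher and 2 lower in OIR retinas, and at p17, 7 were higher and 1 lower, with medians of 0.11 at p14 and 0.17 at p17 on the log2 scale. Over all genes tested, 3.18% were higher and 2.91% lower at p14, and 7.39% were higher and 5.12% lower at p17.

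Receptors made up most of them, with 4 of 9 higher at p14 and 5 of 9 at p17. C3ar1, the receptor for the C3a fragment, ranged from 5.06 to 36.6 normalized reads in nOIR p14 mice and from 65.5 to 199 in OIR p14 mice, and from 8.35 to 44.1 in nOIR p17 and 99.6 to 237 in OIR p17 mice. The groups were apart at both ages, with log2 fold changes of 2.72 (SE 0.41, adjusted p = 4.85e-05) and 2.87 (SE 0.38, adjusted p = 1.98e-06). C5ar1, the receptor for C5a, was between 0 and 6.40 normalized reads in controls and between 20.4 and 57.7 in OIR mice at p14, and between 1.13 and 25.0 in controls and 38.9 and 187 in OIR mice at p17, again without overlap. Its log2 fold changes were 3.30 (SE 0.57, adjusted p = 3.27e-04) and 3.71 (SE 0.54, adjusted p = 6.77e-06).

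Itgb2, the beta chain of complement receptors 3 and 4, changed by 1.44 at p14 (SE 0.39, adjusted p = 0.0231) and 2.15 at p17 (SE 0.37, adjusted p = 7.80e-05) on the log2 scale. At p14, edgeR did not call Itgb2, which left 3 of the 9 receptors. Cd93, once described as a C1q receptor and known as an endothelial and myeloid surface protein, changed by 0.85 (SE 0.16, adjusted p = 9.81e-04) and 2.52 (SE 0.15, adjusted p = 6.91e-13). Itgax, the alpha chain of complement receptor 4, rose at p17 by 3.41 (SE 0.71, adjusted p = 8.74e-04) from 0 reads in most controls. It fell outside the rule for named genes, as did Fcna, a ficolin of the lectin branch (1.75 at p17, SE 0.45, adjusted p = 0.00709), since their means were under 10 normalized reads, and both were added after their values were seen. At p14, Fcna had an estimate of 1.55 (SE 0.48, adjusted p = 0.0503) by limma and was called higher by edgeR and DESeq2.

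Among the other components, C2, the partner of C4 in the classical C3 convertase, ranged from 3.71 to 16.2 normalized reads in nOIR p17 and from 14.0 to 41.2 in OIR p17 mice. Its log2 fold change was 0.11 (adjusted p = 0.943) at p14 and 1.36 (SE 0.36, adjusted p = 0.009999) at p17. The gene Gm20547 also overlaps C2 and shares 58.0% of the 50-base windows of its main transcript, and whether reads of C2 were left out for this was not tested. Of the 7 terminal components listed, which form the membrane attack complex, 6 were found and only 4 reached the minimum level for a test. None of these 4 passed at either age by limma or edgeR, with 1 at an unadjusted p under 0.05 at p14 and 0 at p17 by limma. DESeq2 called 1, Hc, which encodes C5, higher at p14 and 0 at p17. Hc, also outside the rule, averaged 5.50 normalized reads or fewer in each group and was named after its values were seen.

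The regulators were mostly not called. Of the 7 soluble regulators tested, 1 was lower at p14, vitronectin (Vtn), by a log2 fold change of -0.47 (SE 0.12, adjusted p = 0.0141), and 0 were called at p17 by limma or edgeR, where 3 were higher at an unadjusted p under 0.05 by limma. DESeq2 called 2 of them higher at p17. Of the 9 membrane regulators tested, Susd4 was lower at p17, by a log2 fold change of -0.29 (SE 0.07, adjusted p = 0.00566). None of the 9 was called at p14 by limma or edgeR, with Cd59a and Cd59b lower and 1 higher at an unadjusted p under 0.05 by limma, and DESeq2 called Cd59b lower there. Both were named after their values were seen. Colec12, a scavenger receptor of the collectin family, was lower at p14, by -2.27 (SE 0.45, adjusted p = 0.00146), and had an estimate of 0.62 at p17 (adjusted p = 0.425). At p14 it lay between 83.0 and 127 normalized reads in controls and between 4.55 and 22.5 in 5 OIR mice, while OIR mouse S4 had 157, above every control, and edgeR did not call it.

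**Figure D4:**
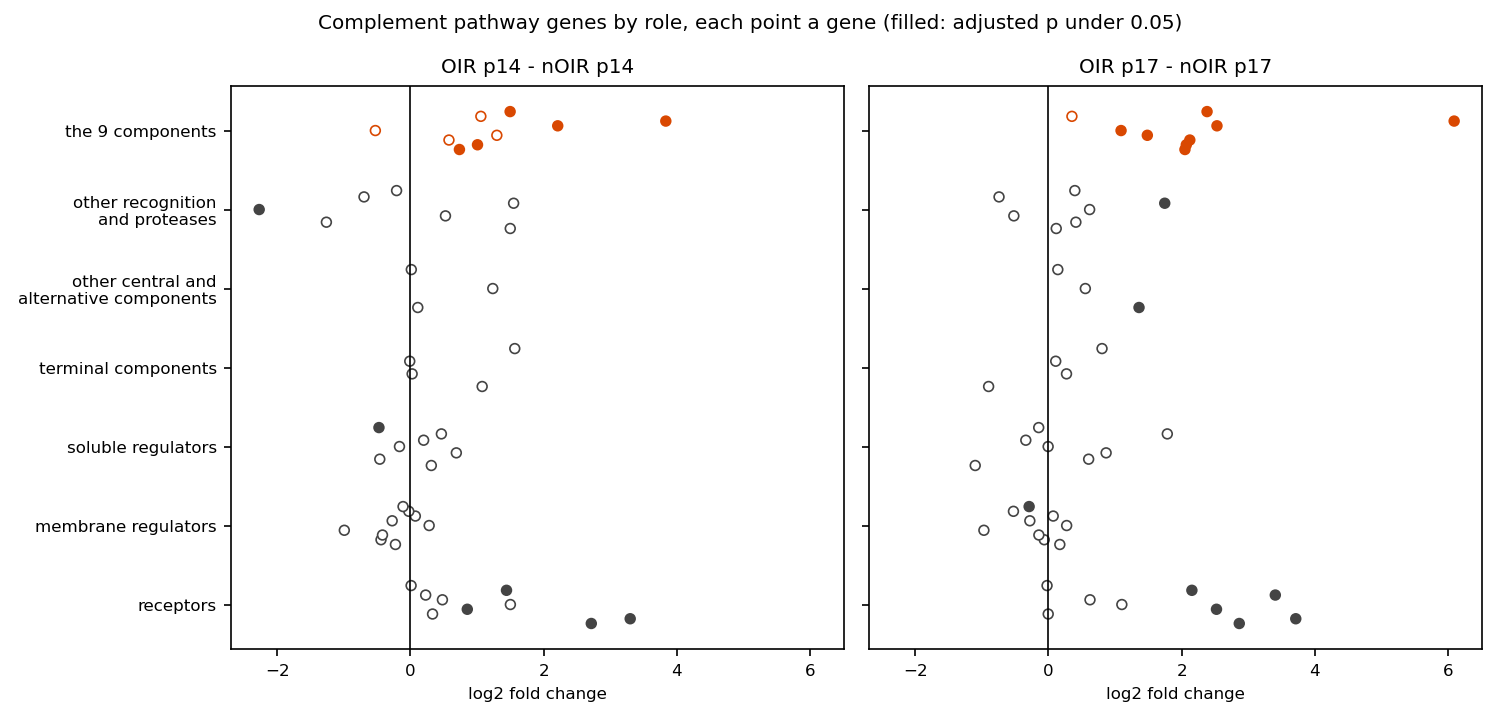
Each point is a complement gene placed by its log2 fold change of OIR against nOIR (horizontal axis), with p14 left and p17 right, in rows by role. Filled points have an adjusted p under 0.05. The 9 components (top row) and the receptors (bottom row) hold most of the filled points, while the terminal components have none.

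Because C1q is made by microglia, its level was set beside microglial markers. Of the 12 markers, 1 was higher and 0 lower at p14, with a median log2 fold change of 0.02, and 6 were higher and 0 lower at p17, with a median of 0.83. The summed level of the 12 ranged from 2553 to 3301 normalized reads in nOIR p14, 2494 to 3651 in OIR p14, 2164 to 2689 in nOIR p17 and 3452 to 5463 in OIR p17 mice, so the sums overlapped at p14 and were apart at p17. The markers did not move alike at p17, where Fcrls changed by 2.98 (adjusted p = 1.08e-08), Trem2 by 1.69 (adjusted p = 2.22e-06) and Cx3cr1 by 1.62 (adjusted p = 5.79e-10), and P2ry12 by 0.03 (adjusted p = 0.971). In bulk retina, more cells of a type and more RNA per cell cannot be told apart.

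The C1q chains lay further above the mean of the 12 microglial markers in OIR than in control retinas. The log2 level of C1qb minus the mean log2 level of the 12 markers was 1.24 ± 0.26 in controls and 2.15 ± 0.19 in OIR mice at p14 (SD, n = 6 each). At p17 it was 1.22 ± 0.25 in 6 controls and 2.33 ± 0.27 in 8 OIR mice. The lowest OIR mouse was at 1.98 at p14 and 1.90 at p17, above the highest controls at 1.72 and 1.65. For C1qa the 4 means were 0.41, 1.06, 0.44 and 1.52, and for C1qc they were 1.01, 1.50, 0.77 and 1.93, with the groups apart at p17 and overlapping at p14. For C3 the means were -1.26, 0.86, -1.23 and 0.34, and the OIR p14 (0.44 to 1.14) and OIR p17 mice (-0.40 to 0.55) overlapped. Perivascular macrophages also make C1q, and with their 6 markers the difference went the other way at p17. Its means in controls and OIR mice at p17 were 4.34 and 3.65 for C1qa, 5.13 and 4.46 for C1qb, and 4.67 and 4.06 for C1qc. At p14 they were 4.09 and 4.46, 4.91 and 5.56, and 4.69 and 4.90, and the groups overlapped at both ages. The part of microglial number in these results was not tested.

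**Figure D5:**
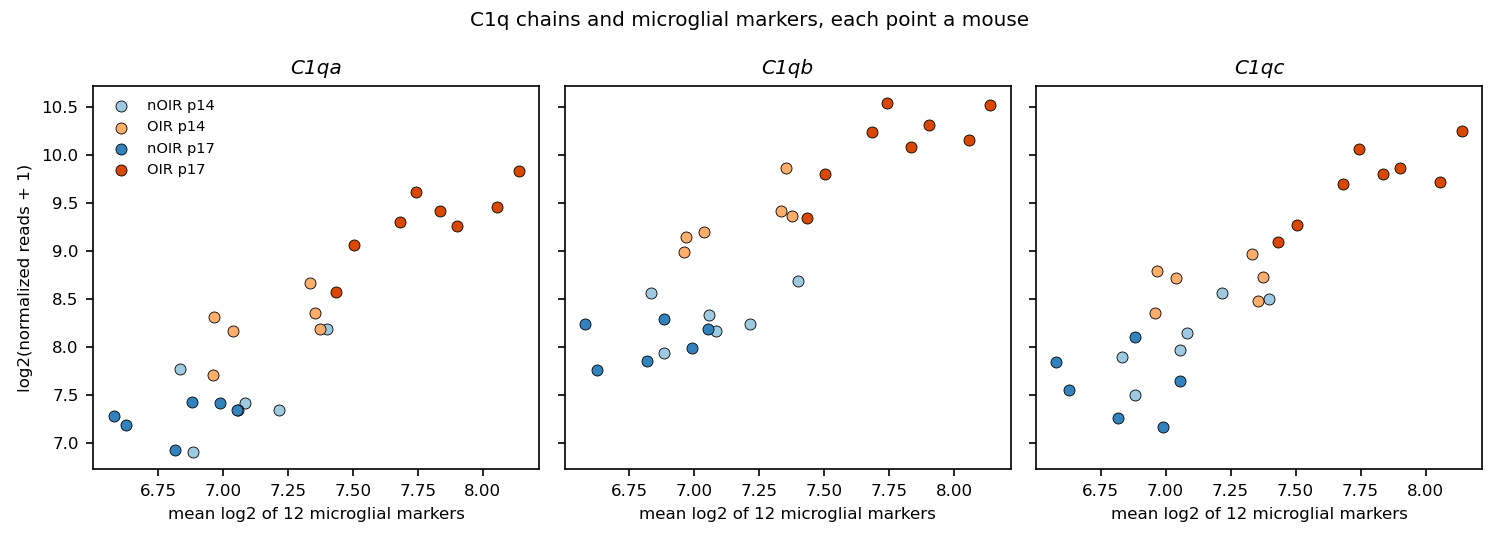
Each point is a mouse, with the mean log2 level of 12 microglial markers on the horizontal axis and log2(normalized reads + 1) of C1qa, C1qb or C1qc on the vertical axis, coloured by group. OIR p14 mice overlap with the controls along the horizontal axis and, for C1qb, lie above them on the vertical axis.

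Markers of other cells also differed at p17. Of the 6 markers of perivascular macrophages, which also make C1q, 0 passed at p14 by limma, edgeR or DESeq2 (1 was lower at an unadjusted p under 0.05), while at p17 Mrc1, Cd163, Pf4 and F13a1 were higher and Lyve1 was lower, though edgeR and DESeq2 did not call Mrc1. Pf4 was at 0 to 5.76 normalized reads in nOIR p17 and at 32.9 to 92.3 in OIR p17 mice. The summed level of the list, set mainly by Lyve1, ranged from 614 to 841 in nOIR p14, 481 to 785 in OIR p14, 737 to 953 in nOIR p17 and 516 to 796 in OIR p17 mice. Of 4 astrocyte markers, which matter here as reactive astrocytes are known to express C3, C4b and Serping1, 2 were higher at p14 and 3 at p17 (2 by edgeR, which did not call Pax2), and their sums ranged from 945 to 1337, 1344 to 2176, 1130 to 1346 and 1498 to 2434 normalized reads in the same order of groups. S100b, also of this list, had an estimate of -0.61 at p14 (adjusted p = 0.0733) and was called lower by DESeq2. Endothelial markers were higher for 1 and lower for 1 of 8 at p14 and higher for 6 at p17, and pericyte markers were lower for 3 of 6 at p14 and higher for all 6 at p17. Of 8 markers of Müller glia, 4 were lower at p14, and 5 were lower and 1 higher at p17, with sums of 60279 to 79158, 50422 to 61260, 65365 to 77276 and 48993 to 68743 in that order of groups. Of 5 erythroid markers, 0 were called at p14 by limma, edgeR or DESeq2 (0 at an unadjusted p under 0.05 by limma), and all 5 were higher at p17 by each tool, with a median log2 fold change of 3.09. Their sums were 97.8 to 1350 and 215 to 848 at p14, and 195 to 1191 in controls and 1227 to 16980 in OIR mice at p17, without overlap. Fibroblast markers were higher for 1 of 5 (Col1a1) at p14 and for 2 (Col1a1 and Col1a2) at p17, where edgeR and DESeq2 also called Dcn, and their sums were 411 to 977, 400.5 to 951, 301 to 585 and 685 to 3259. Of 6 rod markers, all with negative estimates at both ages, limma called Gnat1 lower at p14 and Pde6b and Sag lower at p17. Of 3 neutrophil markers tested, 0 were called at p14 by limma, edgeR or DESeq2 (0 at an unadjusted p under 0.05 by limma), and S100a8 was higher at p17 by limma and DESeq2 but not edgeR, with sums of the list of 3.31 to 11.7 normalized reads in controls and 1.56 to 40.5 in OIR mice. T and NK cell markers were near 0, with sums of 0 to 4.57 in nOIR p14, 0 in every OIR p14, 0 to 2.7 in nOIR p17 and 0 to 23.1 in OIR p17 mice. Of the 2 tested, 0 were called by limma or DESeq2 at either age (0 at p14 and 1 at p17 at an unadjusted p under 0.05 by limma), and edgeR called Cd2 higher at p17. Of 5 markers of the retinal pigment epithelium, 0 were called at either age by limma, edgeR or DESeq2 (1 at p14 and 0 at p17 at an unadjusted p under 0.05 by limma), and their sums ranged from 1504 to 6311, 2459 to 3151, 777 to 5809 and 1565 to 4933 in the order of groups above. Liver and plasma genes were called for 1 of 4 (transferrin, Trf) at each age, and 0 of 6 lens markers passed at either age by limma, adjusted or not, or by edgeR or DESeq2. All 6 lens markers had positive estimates at both ages, with medians of 1.25 and 1.58 on the log2 scale. Their sums ranged from 33.7 to 18003, 45.1 to 6122, 133 to 10746 and 280 to 31988 normalized reads in the same order of groups. The part of these cell types in the levels of the 9 genes was not tested.

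Over the 26 mice, the genes most like each complement gene were found by the root mean square difference of centred log2 values, among the 19003 genes that averaged 10 normalized reads or more. C1qa was nearest to C1qb (0.22) and C1qc (0.26), followed by Ccn2 (0.29). C1qc was followed after C1qa by Laptm5 (0.27) and Cyba (0.29), and C1qb by Ctla2a (0.25) and Ppic (0.28). C3 was nearest to Spidr (0.41), Tnfrsf12a (0.44) and Cdc20 (0.44), and Serping1 to Gm37904 (0.40), Anxa2 (0.40) and Antxr2 (0.41). C4b was nearest to Gm16174 (0.94), Car9 (0.95) and Ndufa4l2 (1.00). This difference grows with a gene's own range, and its median over all genes ranked was 2.76 for C4b and 1.30 for C3, so it does not compare how closely C4b and other genes are matched. C1ra was nearest to Pros1 (0.59), Ube2l6 (0.62) and Oasl2 (0.63), and C1s1 to Anxa4 (0.49), Pald1 (0.55) and Tnfaip8l1 (0.58), so C1r and C1s, which act as a pair in the protein complex, were not each other's nearest transcripts. Their own difference was 1.12, and Cfb was too low to be ranked. These are descriptions over mice that share group and depth, with no test.

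Single mice recurred at the edges of their groups. OIR p17 mouse S1, which had the fewest reads, was lowest in its group for 6 of the 9 genes, and OIR p14 mouse S6 was lowest for 5. Among controls, nOIR p17 mouse S5 was highest for 6 of the 9, namely C1qa, C1qb, C1qc, C4b, Cfb and Serping1. OIR p14 mouse S4 was highest for 4 genes and S1 for 3, namely C1qb, C1ra and Serping1. The nOIR p14 mouse left out, S4, lay within the range of the other nOIR p14 mice for C1qa, C1qb, C1qc, C1ra, C3 and Serping1. It was above them for C4b (34.7 normalized reads against at most 29.3) and Cfb (13.9 against at most 2.66) and below them for C1s1 (13.9 against at least 18.3).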

How the data were processed

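Libraries were made with the SMARTer v4 kit, which keeps no strand. The authors aligned 50-base reads with STAR 2.7.8a and the Gencode M28 annotation, counted them with featureCounts 2.0.1 and divided the counts by DESeq2 1.34 size factors, so the deposited signal is normalized reads. The 4 deposited columns of the authors' log2 fold changes and adjusted p-values were not used. All values were whole multiples of a step per mouse (100%, tolerance 0.01), which gave back whole reads. In 3 mice this step was close to 1 (0.992 in nOIR p14 S4, 1.01 in OIR p14 S3 and 0.992 in OIR p17 S4). No library was a copy of another of its group (lowest chi-square per degree of freedom 9.39). Totals are reads, not independent molecules. As the samples were mice of unknown litter, p-values measure the spread between mice.

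A pseudocount of 1 was added, and limma 3.58.1 (R 4.3.3, eBayes with a trend) was fitted to 4 groups at once over the 27137 genes with a mean of at least 1, with Benjamini-Hochberg adjustment, and was tested on simulated data. There it recovered 57% of 200 genes raised by 1 on the log2 scale in OIR p17, with 6 false calls. Of 200 raised by 2 it recovered 100%, with 12 false calls, and with no gene raised it made 0. The raised genes were drawn from those at higher levels, so recovery at low levels was not tested. Exact permutation tests used scipy 1.17.1. Named were all 9 members, C4a, C1rb, C1s2, C3ar1, C5ar1 and C2 whatever their values, other pathway genes with a mean of at least 10 and an adjusted p under 0.05 at either age (at most 6 per role), and the 3 genes most like each member, with Itgax, Fcna, Hc, Cd59a and Cd59b added after their values were seen. Some genes of the pathway and marker lists are not reported by name here. Members and lists were chosen with earlier results of these data known. Coordinates and shared windows are from GRCm38 (GENCODE M21), not the authors' annotation. Alternatives were pseudocounts of 0.1 and 10, no minimum level other than 0, a minimum mean of 10, S4 included, the compared groups only, a replicate block, edgeR 4.0.16 and DESeq2 1.42.0 on whole reads, quantile normalization, scaling to equal totals, an adjusted p under 0.01, a covariate (Xist or Cryaa), and each mouse left out in turn.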

Additional observations from a re-analysis of the deposited data

Results flagged for a closer look

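The effect of OIR differed between p17 and p14 for the C1q chains, by 1.31 on the log2 scale for C1qa (adjusted p = 0.00449 by limma), 1.06 for C1qb (adjusted p = 0.0123) and 1.54 for C1qc (adjusted p = 7.45e-04).

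In 6 of the 36 sets of 1 gene in 1 group, a single mouse stood far from the others by Dixon's criterion on normalized reads. Chance gives this in about 5% of sets of normally distributed values, which reads are not. On the log2 scale, a check added after seeing the data, it held in 1 set, C1ra in OIR p17 mice. C1ra was highest in nOIR p14 mouse S7 (24.1 normalized reads), OIR p14 mouse S1 (80.8) and OIR p17 mouse S4 (70.5). C4b was highest in nOIR p14 mouse S1 (29.3) and OIR p17 mouse S5 (1145). Cfb was highest in OIR p14 mouse S5 (11.5). Without nOIR p14 mouse S1 the C4b log2 fold change at p14 was 4.11, and without OIR p17 mouse S5 it was 5.91 at p17. All of these distant mice were the highest of their group.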

How the results depend on the processing

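The count of the 9 genes higher at p17 than at p14 in OIR, 5, was 3 (C1qa, C1qb and C1qc) under the replicate block and at an adjusted p under 0.01, and 3 to 6 when leaving out each mouse. The cause was not tested. The counts higher in OIR stayed within 4 to 6 at p14 (5 reported) and 6 to 8 at p17 (8 reported), and the count with a larger effect at p17 within 2 to 4 (3 reported). For single genes, 718 fold changes of OIR against nOIR at p14 or p17 were recomputed. Of these, 0 changed direction against a call, 14 lost their call and 9 gained one. The lost calls were those of C1qa at p14 and of C1ra and C1s1 at p17, and the gained calls those of C1qc and C1ra at p14. Replicate numbers did not pair the mice, since same-numbered mice correlated between -0.11 and 0.06 in 5 pairs at p14 and between -0.03 and 0.14 in 6 pairs at p17. The replicate block gave 6 genes higher at p14 and 6 at p17, losing C1ra (adjusted p = 0.0515) and C1s1 (adjusted p = 0.0701) and gaining C1qc at p14 (adjusted p = 0.0417). A fit of the compared groups only was not run for the difference of effects, and Cfb gave no value at a mean of at least 10.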
